A study of Mus musculus with 159 samples.

Results

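Chemokines and their receptors were described across 159 mammary tumors. The genes were found by symbol: every gene of the array annotation whose probe set carried a single symbol of the Ccl, Cxcl, Ccr, Cxcr, Xcl, Xcr or Cx3c series followed by family letters and numbers. That rule gave 53 of 18954 named genes, 34 ligands and 19 receptors, each with 1 probe set. A further 6 family symbols, Ccl21a to Ccl21d, Ccl27a and Ccl27b, stood only on 3 probe sets that list several symbols, and no value was taken from those. Ccrl2 and Ccr1l1, receptor-like genes whose symbols fit the rule, were counted with the receptors.

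Each of 159 female mice (DO G7 x PyMT), untreated and about 100 days old, gave 1 mammary tumor and 1 array. PyMT is a viral oncogene that the MMTV promoter drives mainly in mammary epithelium, so every animal carried the transgene on 1 FVB/NJ set of chromosomes and drew its other set from the mixed Diversity Outbred founders. The tumors form 1 group with no control and no normal mammary gland, so the measurements are levels, spread and relations between genes across tumors. Values are log2 intensities on Affymetrix mouse ST arrays, with each array shifted to the median array, and a difference of 1 is a 2-fold difference in signal.

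Chemokines are small secreted proteins, of the CC, CXC, XC and CX3C classes by the spacing of their first cysteines, that set up gradients along which leukocytes migrate. Their receptors are membrane proteins with several passes that signal through inhibitory G proteins, and most inflammatory ligands share receptors while the homeostatic ones tend to have a receptor of their own. In the mammary gland and its tumors these proteins are known for drawing in monocytes, lymphocytes, neutrophils and antibody-secreting cells.

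A level of 5.76, the 95th percentile of the mean levels of 1215 olfactory, vomeronasal and taste receptor genes, served as background. Lists of cell type and response markers without any member of the family gave 16 scores, each the mean of the standardized values of its list. The luminal keratin and junction genes of the tissue had a median mean level of 10.66 with 11 of 11 measured markers above background, and for macrophages the count was 12 of 12, for endothelium 11 of 11, for T cells 8 of 10, for B cells and plasma cells 5 of 10 and for neutrophils 6 of 10. On the B cell score 9 tumors stood apart from the other 150 (1.95 or more against 0.39 or less), and 6 of these 9 also stood apart on the T cell score (1.96 or more against 0.72 or less). Another 6 arrays correlated less with the rest (median r down to 0.895, against 0.975 for a typical array), and none of them was among the 9. Genes of other tissues, picked after their values were seen, were high on some: tumor 27 had 13.47 for the salivary gene Smgc (median 4.99), tumor 22 had 13.47 for the skin keratin Krt1 (median 5.90), tumor 67 had 12.96 for the hair protein gene Krtap8-1 (median 5.96) and tumor 12 had 12.97 for the cartilage gene Ucma (median 6.75). Relations with scores were therefore fitted over the 150 tumors, and values with all 159, without the 6 arrays and within blocks of animal numbers are given where they matter. In bulk tissue, more cells of a type and more RNA per cell cannot be told apart.

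Start-site sequence is shown for 4 ligands of chromosome 5 that formed pairs in the results below, Cxcl10 with Cxcl9 among the interferon-related ligands and Cxcl2 with Cxcl1 among the neutrophil ligands. Each line runs 5′ to 3′ from 250 bases before to 50 bases after the RefSeq start (GRCm38.p6), in lower case with matches to an interferon-stimulated response element (GAAANNGAAA) or to the NF-kappaB consensus in capitals, on either strand. Cxcl10 lies at chr5:92348840-92349139 and Cxcl9 at chr5:92328030-92328329, both on the minus strand, and Cxcl2 at chr5:90903649-90903948 and Cxcl1 at chr5:90890995-90891294, both on the plus strand.
Cxcl10: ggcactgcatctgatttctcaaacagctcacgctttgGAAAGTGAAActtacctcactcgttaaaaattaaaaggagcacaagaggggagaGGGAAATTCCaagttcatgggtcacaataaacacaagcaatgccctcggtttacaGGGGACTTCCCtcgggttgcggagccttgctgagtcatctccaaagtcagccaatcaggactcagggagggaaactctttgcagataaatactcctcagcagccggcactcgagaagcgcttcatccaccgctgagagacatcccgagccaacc
Cxcl9: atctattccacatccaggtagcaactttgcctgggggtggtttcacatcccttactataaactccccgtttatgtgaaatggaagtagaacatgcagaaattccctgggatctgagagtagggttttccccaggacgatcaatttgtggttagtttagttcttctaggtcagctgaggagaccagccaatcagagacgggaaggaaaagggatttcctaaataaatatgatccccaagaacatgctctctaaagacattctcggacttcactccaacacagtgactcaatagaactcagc
Cxcl2: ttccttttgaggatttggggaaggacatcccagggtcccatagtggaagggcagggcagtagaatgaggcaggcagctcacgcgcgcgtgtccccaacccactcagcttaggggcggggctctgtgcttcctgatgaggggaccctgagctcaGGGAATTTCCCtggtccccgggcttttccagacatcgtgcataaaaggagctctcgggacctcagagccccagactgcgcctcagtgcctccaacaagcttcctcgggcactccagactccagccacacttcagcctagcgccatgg
Cxcl1: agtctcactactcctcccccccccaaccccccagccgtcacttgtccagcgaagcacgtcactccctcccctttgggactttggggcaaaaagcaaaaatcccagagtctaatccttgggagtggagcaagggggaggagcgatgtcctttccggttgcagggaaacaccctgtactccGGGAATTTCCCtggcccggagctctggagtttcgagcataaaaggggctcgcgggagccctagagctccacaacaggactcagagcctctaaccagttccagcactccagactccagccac
Cxcl10 held 1 response element, 213 bases before the start, and 3 NF-kappaB matches, of which 2 overlap. Neither motif occurred in the Cxcl9 window, nor did the gamma-activated site TTCNNNGAA. Cxcl2 and Cxcl1 each held the same NF-kappaB run read on both strands, 97 bases before the start in Cxcl2 and 71 in Cxcl1. Of the 53 members, 39 had a window in the RefSeq table. The response element was found in 3 of these 39 (Ccl19, Cxcl10 and Cxcl14), the gamma-activated site in 4 and the NF-kappaB match in 11. Among all 32851 windows of the same length the shares were 3.44%, 8.3% and 8.46%. These shares are per window and the member counts per gene. Counted per window, the members had the motifs in 3, 4 and 11 of 43.

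More members than the genome's share varied across tumors. Of the 53 members, 36 (67.9%) had a mean above background, against 75.1% of all named genes, and these were 27 of 34 ligands and 9 of 19 receptors. A single tumor had between 28 and 45 members above background (median 35). As a test of spread, the variance of each gene was set against the median variance of all probe sets (chi-square, one-sided p under 0.05), and 40 members (75.5%) passed, against 43.9% of all named genes. The 40 were 26 ligands and 14 receptors. Of them 30 had a mean above background and 10 did not. The median SD was 0.376 over the members and 0.22 over all named genes, 0.499 among the ligands and 0.366 among the receptors. Without the 9 lymphocyte-rich tumors 33 members passed (43.8% of all genes did), and the 7 that no longer did were the ligand Ccl22 and the receptors Ccr6, Ccr9, Cxcr3, Cxcr5, Cxcr6 and Xcr1.

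**Figure D1:**
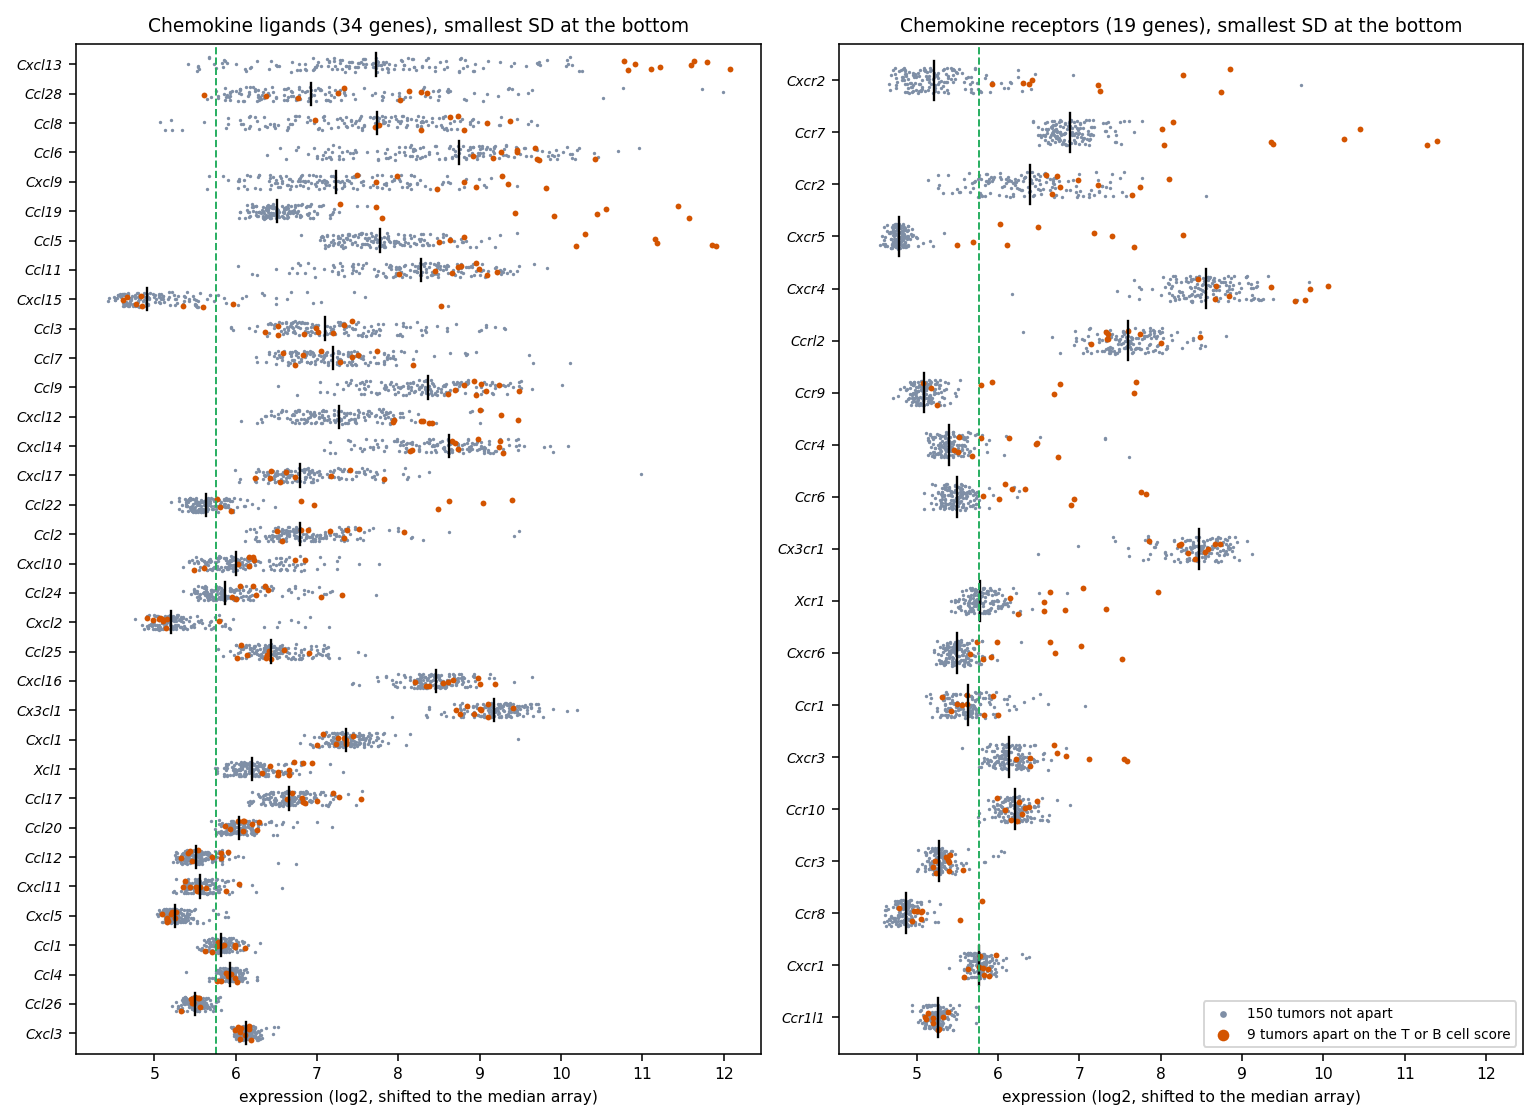
Expression of the 34 ligands (left) and 19 receptors (right) in each tumor, on the log2 scale with 1 row per gene ordered by SD. Points are tumors, with the 9 that stood apart on the T or B cell score in orange, black ticks are medians and the dashed line is the background level of 5.76. The 9 tumors lie at the upper end for Cxcl13, Ccl19, Ccl5, Ccr7 and Cxcr5 and within the others for Ccl28, Ccl8 and Ccl3.

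Cxcl13, the B cell attractant of lymphoid follicles, had the largest SD of the family, 5.42 at the lowest, 7.72 at the median and 12.07 at the highest (mean 7.90 ± 1.42, SD, n = 159). Next came Ccl28, a ligand that epithelium secretes and that draws antibody-secreting cells into the lactating gland, with 5.62, 6.92 and 11.99 (7.20 ± 1.19). Both genes ran from near or below background to over 6 log2 units above their lowest tumor. Among the members above background the smallest SDs were those of Cxcl3, a neutrophil attractant, with 5.94, 6.12 and 6.52 (SD 0.097), and Ccl4, an inflammatory CC ligand, with 5.39, 5.93 and 6.27 (SD 0.115). The 13 members that did not pass the spread test had SDs of 0.097 to 0.216, and besides Cxcl3 and Ccl4 they were Ccl1, Ccl12, Ccl20, Ccl26, Cxcl5, Cxcl11, Ccr3, Ccr8, Ccr10, Cxcr1 and Ccr1l1. Ccr1l1 was above background in none of the 159 tumors, while 21 members were above it in every tumor.

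The 53 highest values fell in 24 tumors and the 53 lowest in 33, and 15 of the 53 highest fell in the 9 tumors that stood apart on the lymphocyte scores, against 1 of the 53 lowest values. No share over all named genes stands beside these counts. Several of the members concerned are genes of the same cells as the lists that set the 9 tumors apart. Tumor 3, one of the 9, held the highest value of 8 members (Cxcl13, Ccl5, Ccr7, Ccr8, Ccr9, Cxcr4, Cxcr5 and Cxcr6) and the lowest of Ccl28. Tumor 110, another of them, held the highest of 7 (Ccl19, Ccl22, Cxcl9, Cxcl12, Ccr6, Cxcr3 and Xcr1). Tumor 36 held the lowest of 6, Ccl2, Ccl5, Ccl6, Ccl11, Cxcl9 and Ccr2, and it had low scores for macrophages (-2.21), fibroblasts (-2.88) and endothelium (-2.38) beside a luminal score of 0.82.

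A large share of the family rose with the macrophage score. Ccl6 and Ccl9, mouse CC ligands that bind Ccr1, Ccl8, which binds Ccr8 in the mouse, and Ccr2, the receptor by which monocytes leave the blood, all rose with the macrophage score. With that score 33 of the 53 members rose and 1 fell (limma, adjusted p under 0.05 over all named genes, n = 150), against 16.6% of all genes that rose and 13.3% that fell. The median slope over the members was 0.10 on the log2 scale per SD of the score, and over all genes it was -0.0079. No tumor stood apart on that score.

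Ccl8 had 5.07 at the lowest, 7.74 at the median and 9.70 at the highest (7.60 ± 1.01). Its slope on the macrophage score was 0.79 ± 0.051 (SE, adjusted p = 2.86e-30), the ninth largest in size among all genes, and 0.67 to 1.07 within the 5 larger blocks of animal numbers. Ccl6 had 6.39, 8.75 and 10.96 (8.64 ± 0.997) and a slope of 0.74 ± 0.054 (adjusted p = 1.02e-25). Tumors low in one tended to be low in the other: r between Ccl6 and Ccl8 was 0.80 and rho 0.78 (permutation p = 1e-05 for each, adjusted p = 6.82e-05 over 1378 pairs). Ccl9 had 6.52, 8.37 and 10.02 (8.37 ± 0.635) and rose by 0.44 ± 0.037 (adjusted p = 5.5e-21). Ccr2 had 5.14, 6.40 and 8.55 (6.44 ± 0.634) and rose by 0.48 ± 0.031 (adjusted p = 2.44e-30). The 4 genes also rose with the fibroblast, endothelium and adipocyte scores, which themselves correlated with the macrophage score (r = 0.686, 0.674 and 0.440 across the 150 tumors). With all 16 scores in 1 model the macrophage slopes were 0.48 for Ccl8 (adjusted p = 1.6e-05), 0.44 for Ccl6, 0.29 for Ccl9 and 0.30 for Ccr2, each still past the threshold.

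The monocyte ligands Ccl2, Ccl7 and Ccl12, which bind Ccr2, rose with the macrophage score, and Ccl2 and Ccl7 also with the inflammatory score. Ccl7 had 6.25, 7.20 and 10.12 (7.28 ± 0.643), with a slope of 0.34 ± 0.045 on the macrophage score (adjusted p = 9.78e-11) and 0.25 ± 0.049 on the inflammatory score of NF-kappaB target genes (adjusted p = 5.98e-05). For Ccl2, the ligand best known for recruiting monocytes into tumors, the values were 6.12, 6.79 and 9.49 (6.94 ± 0.539), with slopes of 0.23 ± 0.04 (adjusted p = 1.04e-06) and 0.21 ± 0.041 (adjusted p = 4.76e-05) on the same scores. With all scores in 1 model the macrophage slope of Ccl2 was 0.091 (adjusted p = 0.36) and that of Ccl7 0.12 (adjusted p = 0.29), so neither passed. Ccl12, above background in 21 tumors, had a macrophage slope of 0.097 ± 0.015 (adjusted p = 4.68e-08) and an inflammatory slope of 0.043 ± 0.017 that did not pass (adjusted p = 0.0764). All 3 also rose with the dendritic cell, neutrophil, interferon gamma, fibroblast and endothelium scores. The same tumor held the highest value of all 3 genes.

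Cx3cr1 and its membrane-bound ligand Cx3cl1 were above background in every tumor. Cx3cl1 had 7.93, 9.18 and 10.19 (9.18 ± 0.334) and Cx3cr1, a receptor of tissue macrophages, 6.49, 8.47 and 9.12 (8.43 ± 0.366). Their SDs were slightly below the family's median of 0.376. Cx3cr1 rose with the macrophage score by 0.20 ± 0.025 (adjusted p = 9.26e-12) and Cx3cl1 by 0.16 ± 0.024 (adjusted p = 1.76e-08). Cxcl16, a transmembrane ligand and scavenger receptor, had 7.44, 8.47 and 9.64 (8.47 ± 0.335) and rose by 0.17 ± 0.023 (adjusted p = 2.55e-10). In the limma model of all scores the macrophage slopes of Cx3cr1 (0.29, adjusted p = 1.91e-06) and Cxcl16 (0.34, adjusted p = 1.94e-13) passed. That of Cx3cl1 did not (0.10, adjusted p = 0.0749). Tumors 27 and 150, both low-correlation arrays, were the lowest for Cxcl16 (7.44 each) and for Cx3cr1 (6.99 and 6.49).

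**Figure D2:**
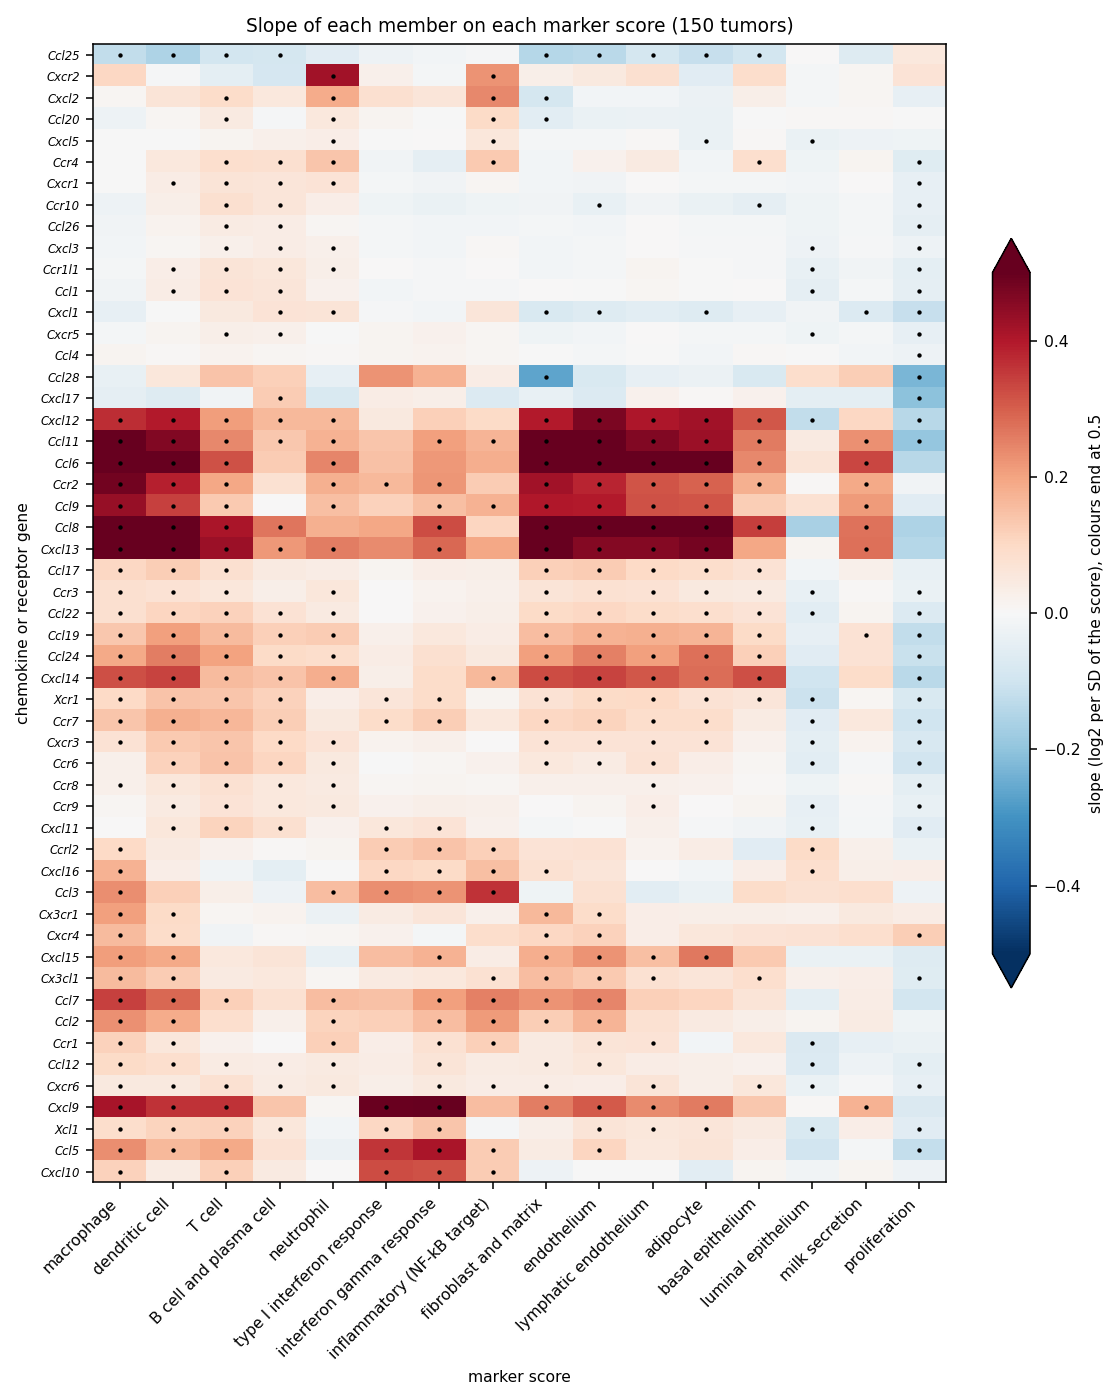
Slope of each of the 53 members (rows) on each of 16 marker scores (columns), in log2 units per SD of the score over 150 tumors, each score fitted alone. Red is higher and blue lower with the score, colours end at 0.5, and dots mark an adjusted p under 0.05 over all named genes. Ccl6, Ccl8, Ccl11, Ccr2 and Cxcl13 are red across the macrophage and stromal columns, while Cxcl9, Ccl5 and Cxcl10 are reddest in the interferon columns.

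Interferon-inducible ligands formed another set. Cxcl9 and Cxcl10, ligands of the T cell receptor Cxcr3, and Ccl5, made by T cells and other leukocytes, rose with both interferon scores. With the interferon gamma score (guanylate-binding proteins, immunity-related GTPases and Irf1) 21 members rose and 0 fell, against 6.5% and 3.93% of all genes. With the type I interferon score (Ifit, Oas and Mx genes) 11 rose and 0 fell, against 3.41% and 1.42%. At an unadjusted p under 0.05 in the same limma fits, 28 rose and 1 fell with interferon gamma, and 22 rose and 0 fell with type I. No share of all genes at that unadjusted threshold stands beside these counts.

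Cxcl9 had 5.65 at the lowest, 7.23 at the median and 9.81 at the highest (7.35 ± 0.873). Its slope was 0.58 ± 0.047 on the interferon gamma score (adjusted p = 2.76e-22; 0.48 to 0.71 within blocks) and 0.49 ± 0.053 on the type I score (adjusted p = 3.61e-14). In the model with all scores the interferon gamma slope was 0.46 and the type I slope -0.0074. Cxcl10, whose promoter is printed above with its response element, had 5.35, 6.01 and 7.76 (6.11 ± 0.459) and was at or below background in 38 tumors. It rose about equally with both scores, by 0.32 ± 0.027 with type I (adjusted p = 1.83e-21) and by 0.32 ± 0.027 with interferon gamma (adjusted p = 1.62e-20). With all scores together the type I slope of Cxcl10 was 0.20 (adjusted p = 0.025) and its interferon gamma slope 0.11 (adjusted p = 0.2), the opposite order to Cxcl9. Whether the 2 genes differ in these slopes was not tested. Ccl5 had 6.81, 7.78 and 11.90 (7.97 ± 0.825), and rose by 0.41 ± 0.027 with the interferon gamma score (adjusted p = 7.65e-29). Among the 150 tumors the highest Ccl5 was 9.46, and 6 of the 9 lymphocyte-rich tumors were above that.

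Cxcl11, the remaining Cxcr3 ligand, lay below background on average (5.23, 5.56 and 6.57) and its slope on the interferon gamma score was 0.070 ± 0.015 (adjusted p = 0.000313). Its largest slope in standardized terms was with the T cell score, 0.11 ± 0.013 (adjusted p = 1.33e-12). Xcl1, which draws cross-presenting dendritic cells, had 5.74, 6.20 and 7.32 (6.25 ± 0.277) and rose with interferon gamma by 0.14 ± 0.018 (adjusted p = 8.22e-10). Cxcr3 itself had 5.55, 6.13 and 7.58, rising with the T cell score by 0.14 ± 0.012 (adjusted p = 1.3e-19), and its slope on the interferon gamma score was 0.026 (adjusted p = 0.316). Ccrl2, a receptor that presents chemerin without signaling, had 6.31, 7.60 and 8.80 (7.62 ± 0.382) and rose with interferon gamma by 0.14 ± 0.029 (adjusted p = 0.00015). In the limma model of all scores the interferon gamma slopes of Ccrl2 (0.14, adjusted p = 0.128) and Cxcl11 (0.051, adjusted p = 0.239) did not pass. That of Xcl1 (0.11, adjusted p = 0.0389) and the T cell slopes of Cxcl11 (0.077, adjusted p = 0.0199) and Cxcr3 (0.087, adjusted p = 0.0037) still passed.

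The ligands and receptors of lymphoid tissue separated the 9 lymphocyte-rich tumors from the rest. Ccl19 and its receptor Ccr7 guide T cells and dendritic cells in lymph nodes, and Cxcl13 and its receptor Cxcr5 guide B cells into follicles. The 9 tumors were set apart by T and B cell genes and not by these members, but the lists and members are genes of the same cells, so their values are given without a test. Ccr7 lay between 8.01 and 11.39 in the 9 tumors (median 9.38) and between 6.43 and 7.78 in the other 150 (median 6.86), with no overlap. Cxcr5 lay between 5.50 and 8.28 in the 9 (median 6.49) and between 4.55 and 5.34 in the 150 (median 4.77), again without overlap. Ccl19 ran from 7.28 to 11.58 in the 9 (median 9.92) and from 6.04 to 7.62 in the 150 (median 6.50), with 8 of the 9 above all others. Cxcl13 ran from 10.77 to 12.07 in the 9 (median 11.22) and from 5.42 to 10.78 in the 150 (median 7.64), also with 8 of the 9 on top. Ccl22, a dendritic cell ligand of Ccr4, reached 9.40 in the 9 and 6.49 in the 150.

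Outside the 9 tumors the same genes moved over a narrower range. With the T cell score 37 members rose and 1 fell, against 36.7% and 35.3% of all genes. With the dendritic cell score 35 rose and 1 fell (30.7% and 30.7%), and with the score of B and plasma cells 28 rose and 1 fell (33.6% and 33%). These scores took in a large share of all genes in both directions. The T cell score correlated at 0.495, and the B cell score at 0.508, with a score of the background receptor genes, and most receptors here lay near background too. With that background score as a second covariate 32 members rose and 1 fell with the T cell score. The counts were 36 and 1 for the dendritic cell score and 27 and 2 for the score of B and plasma cells. After quantile normalization 9 rose and 0 fell with the score of B and plasma cells (3 lower at an unadjusted p under 0.05 in limma). No share of all genes stands beside the counts with that covariate or, here and below, after quantile normalization. Ccr7 rose with the T cell score by 0.17 ± 0.017 (adjusted p = 2.96e-15), and by 0.20 with the background score as a covariate, against a slope of 0.69 over all 159 tumors. Ccl19 rose by 0.16 ± 0.020 (adjusted p = 9.6e-12), against 0.78 over all 159, and by 0.20 ± 0.017 with the dendritic cell score (adjusted p = 3.63e-21). Slopes are per SD of the score, and the score's own spread is wider with the 9 tumors. Ccr6, a receptor of B cells and some T helper cells, rose with the T cell score by 0.14 ± 0.012 (adjusted p = 9.34e-21), and by 0.11 with that covariate. Xcr1, the receptor of cross-presenting dendritic cells, rose with the dendritic cell score by 0.14 ± 0.013 (adjusted p = 3.31e-18). In the model of all scores the T cell slopes of Ccr7 (0.065, adjusted p = 0.145) and Ccl19 (0.0027, adjusted p = 0.966) did not pass. Nor did the dendritic cell slope of Ccl19 (0.069, adjusted p = 0.147). Ccr6 on T cells (0.063, adjusted p = 0.028) and Xcr1 on dendritic cells (0.068, adjusted p = 0.0461) still passed.

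Cxcl13 differed from its receptor within the 150 tumors. Its slope was 0.62 ± 0.080 on the dendritic cell score (adjusted p = 1.98e-11), 0.62 ± 0.081 on the macrophage score (adjusted p = 5.59e-11) and 0.43 ± 0.089 on the T cell score (adjusted p = 9.48e-06). On the score of B and plasma cells it was 0.22 ± 0.094 (adjusted p = 0.0343), between -0.016 and 0.46 within blocks, and it did not pass with the values as deposited, after quantile normalization, without the low-correlation arrays or with block means removed (0.149 to 0.2, adjusted p = 0.0557 to 0.273). The other slopes of Cxcl13 did not pass in the model of all scores. There they were 0.14 for dendritic cells (adjusted p = 0.624), 0.26 for macrophages (adjusted p = 0.164) and 0.14 for T cells (adjusted p = 0.569). Cxcr5 was above background in 7 tumors of 159, and its slope on the B cell score over the 150 was 0.025 ± 0.0089 (adjusted p = 0.0118), against 0.49 over all 159, and 0.0035 without the low-correlation arrays (adjusted p = 0.705). All 150 tumors had Cxcr5 below background, while Cxcl13 reached 10.78 among them.

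**Figure D3:**
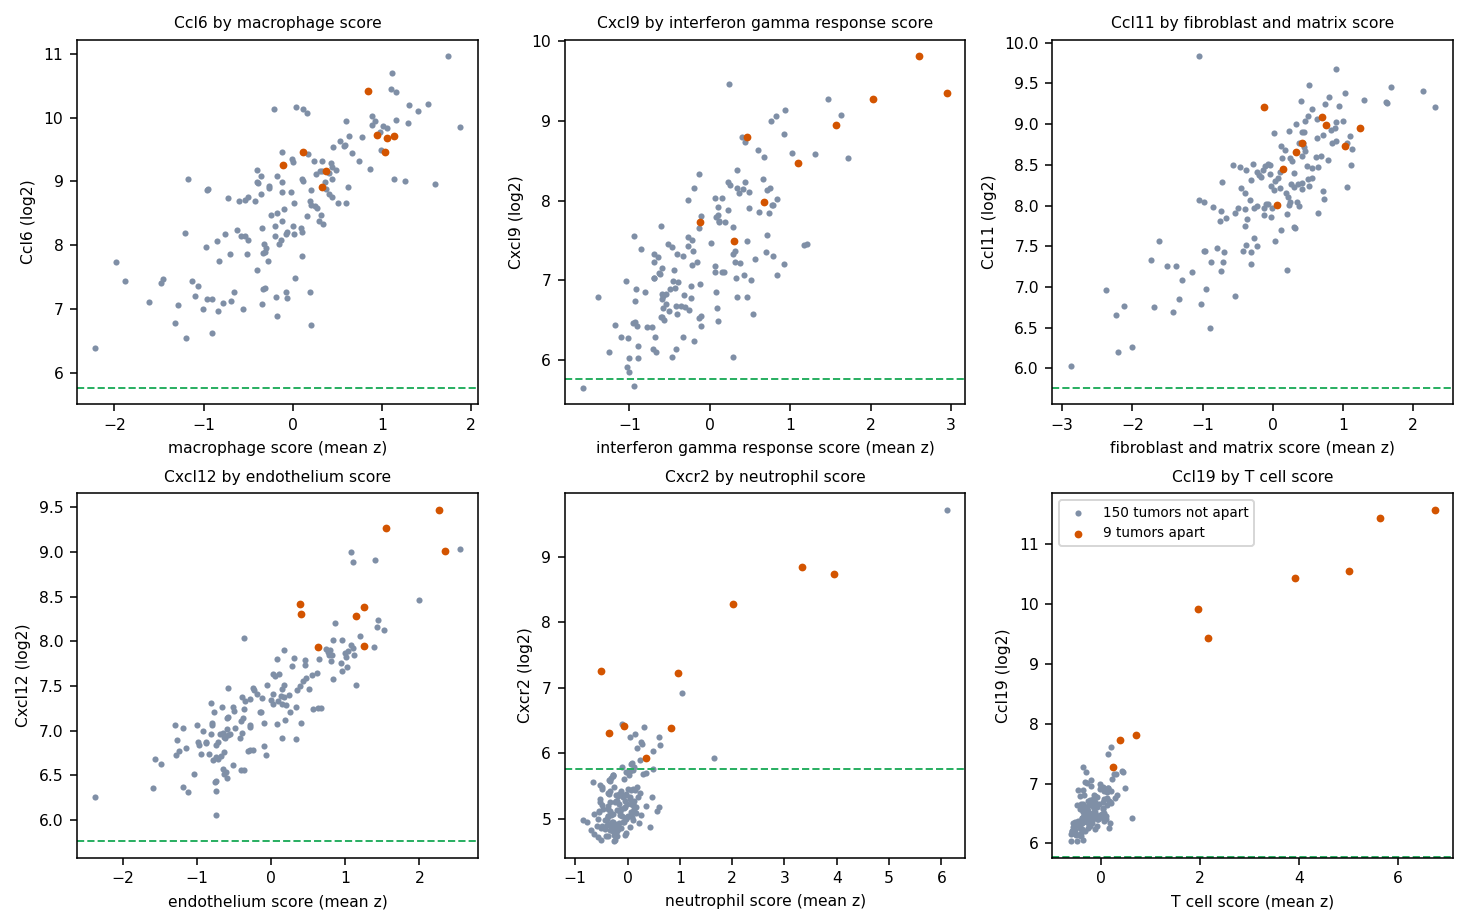
Level of 6 members (vertical axes, log2) against a marker score (horizontal axes, mean of standardized values) in each tumor, with the 9 lymphocyte-rich tumors in orange and the background level dashed. Ccl6, Cxcl9, Ccl11 and Cxcl12 climb across the whole range of their scores, Cxcr2 is high in few tumors, and Ccl19 is spread widely only where the T cell score is high.

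Cxcr2 and Cxcl2 were above background in a minority of tumors. Cxcr2 is the main receptor by which neutrophils respond to Cxcl1, Cxcl2 and Cxcl5, and Ccl3 and Ccl20 are inflammatory CC ligands. With the neutrophil score 30 members rose and 0 fell, against 13% and 13.6% of all genes. With the inflammatory score 18 rose and 0 fell, against 9.47% and 3.89%. At an unadjusted p under 0.05 in the same limma fits the counts were 33 and 1 for neutrophils and 28 and 0 for the inflammatory score. Shares of all genes at that unadjusted threshold are not given. The neutrophil count was 8 after quantile normalization.

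Cxcr2 had 4.65 at the lowest, 5.21 at the median and 9.72 at the highest (5.40 ± 0.748), and 27 tumors were above background. Its slope on the neutrophil score was 0.42 ± 0.029 (adjusted p = 2.69e-26; 0.30 to 0.60 within blocks). Tumor 67, the low-correlation array with the high hair protein gene, held the highest Cxcr2 and stood apart on the neutrophil score, and without it the slope was 0.21 (adjusted p = 4.02e-09). Of the 9 highest values of Cxcr2, 6 were in the lymphocyte-rich tumors, where it ran from 5.93 to 8.85. Cxcl2 had 4.76, 5.20 and 7.14 (5.31 ± 0.412), with 17 tumors above background, and rose with the inflammatory score by 0.24 ± 0.028 (adjusted p = 2.61e-11). Ccl3 had 5.94, 7.10 and 9.31 (7.23 ± 0.705) and rose with it by 0.36 ± 0.050 (adjusted p = 2.07e-08). Cxcl1 had a narrower spread, with 6.79, 7.36 and 9.48 (7.39 ± 0.284), and its slope of 0.059 ± 0.023 on the inflammatory score did not pass (adjusted p = 0.0738), though it did after quantile normalization (0.089, adjusted p = 0.00889), with the values as deposited, with block means removed and without the low-correlation arrays (0.054, adjusted p = 0.045). Tumor 27, with the salivary genes, held that 9.48, and the next tumor had 8.15. Ccl20, the ligand of Ccr6, had 5.70, 6.04 and 7.19 and rose by 0.097 ± 0.016 (adjusted p = 2.74e-06), and Cxcl5 by 0.056 ± 0.012 (adjusted p = 0.000236).

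Stromal ligands followed fibroblasts, vessels and fat. With the fibroblast score 27 members rose and 5 fell (15.1% and 11.1% of all genes), with the endothelium score 28 and 3 (18.1% and 16.2%), with the lymphatic endothelium score 25 and 1 (15.8% and 16.1%) and with the adipocyte score 19 and 3 (15.6% and 15.6%). After quantile normalization 20 rose and 6 fell with the lymphatic endothelium score and 18 and 6 with the adipocyte score. Ccl11, the eosinophil attractant that fibroblasts secrete, had 6.03, 8.28 and 9.83 (8.21 ± 0.749) and a slope of 0.61 ± 0.037 on the fibroblast score (adjusted p = 3.55e-33; 0.49 to 0.68 within blocks). It was above background in every tumor. Cxcl12, the ligand of Cxcr4 that stromal and endothelial cells make, had 6.06, 7.27 and 9.47 (7.35 ± 0.633) and rose with the endothelium score by 0.47 ± 0.025 (adjusted p = 5.37e-39), the smallest adjusted p of any member and score, and with the fibroblast score by 0.40 ± 0.032 (adjusted p = 3.3e-22). With all scores in 1 model its endothelium slope was 0.18 (adjusted p = 0.00396) and its fibroblast slope 0.068 (adjusted p = 0.254). Cxcl14, made by skin and glandular epithelium, had 7.09, 8.62 and 10.09 (8.57 ± 0.588) and rose with the endothelium score by 0.34 ± 0.040 (adjusted p = 4.33e-13) and with the basal epithelium score by 0.32 ± 0.041 (adjusted p = 1.2e-10). In the model of all scores the basal slope was 0.19 and the endothelium slope turned to -0.038. Ccl24, an eosinophil ligand of Ccr3, had 5.36, 5.87 and 7.72 (SD 0.433) and rose with the adipocyte score by 0.28 ± 0.026 (adjusted p = 2.45e-18).

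Cxcr4, the receptor of Cxcl12, had 6.17, 8.56 and 10.06 (8.60 ± 0.479), and its slope on proliferation rested on 1 tumor. With the proliferation score (Mki67, Top2a and other mitotic genes) 1 member rose and 31 fell, against 27.3% and 33.5% of all genes. After quantile normalization 1 rose and 15 fell, and without tumor 27, which stood apart at -6.97 on this score, 25 members in all passed. The 1 that rose was Cxcr4, with a slope of 0.12 ± 0.035 (adjusted p = 0.0017), negative in 2 of 5 blocks (-0.065 to 0.24). Its lowest value was in tumor 27, and without that tumor the slope was -0.0010 (adjusted p = 0.98). Its slope on the macrophage score was 0.16 ± 0.034 (adjusted p = 7.47e-05), positive in all 5 blocks.

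Among ligands that epithelium makes, Ccl28 varied over a wide range with few relations to the scores. With the luminal epithelium score 2 members rose and 18 fell (22.6% and 23.7% of all genes, and 9 members in all without the 6 low-correlation arrays, of which tumor 12 stood apart at -6.10), with the milk secretion score 8 and 1 (11.6% and 11.4%) and with the basal epithelium score 15 and 2 (14.1% and 6.75%). After quantile normalization 7 rose and 0 fell with the milk secretion score (limma, 2 lower at an unadjusted p under 0.05). The 2 that rose with the luminal score were Cxcl16, by 0.082 ± 0.026 (adjusted p = 0.00773), and Ccrl2, by 0.094 ± 0.030 (adjusted p = 0.0079). Without the 6 low-correlation arrays neither passed, with 0.035 for Cxcl16 (adjusted p = 0.295) and -0.0054 for Ccrl2 (adjusted p = 0.902). Cxcl16 also did not pass with the values as deposited (0.059, adjusted p = 0.0686) or after quantile normalization (0.032, adjusted p = 0.38). The call of Ccrl2 was also lost without tumor 12 alone, where its slope was 0.054 (adjusted p = 0.125). For Ccl28, despite its SD of 1.19, the slope was 0.090 on the luminal score (adjusted p = 0.452) and 0.12 on the milk score (adjusted p = 0.389). It fell with the fibroblast score by 0.26 ± 0.095 (adjusted p = 0.0289), a call lost without the 6 low-correlation arrays (-0.20, adjusted p = 0.0838). The 5 genes closest to Ccl28 over the 150 tumors were Lpo (r = 0.653), Pip (0.618), Odam, Tent5c and Oit1, of which lactoperoxidase and prolactin-induced protein are secreted into milk, saliva or tears. Tumor 27 had 11.74 for Ccl28, the second highest value, and without the low-correlation arrays r was 0.592 for Lpo and 0.589 for Pip.

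Cxcl17, a mucosal ligand, had 5.99, 6.80 and 10.99 (6.92 ± 0.584), with the 10.99 in tumor 27 and 8.38 in the next. It fell with the proliferation score by 0.21 ± 0.045 (adjusted p = 4.91e-05), and without tumor 27 the slope was 0.0039 (adjusted p = 0.938). That relation rested on 1 tumor. Cxcl15, an epithelial ligand of lung and glands in the mouse, had 4.43, 4.91 and 8.61 (5.16 ± 0.715) with 20 tumors above background, and rose with the adipocyte score by 0.26 ± 0.051 (adjusted p = 8.24e-06). Closest to it over the 150 tumors were Cyp3a57 (r = 0.763), Pgr, the progesterone receptor (0.693), and Ido1 (0.674). Ccl25, the gut and thymus ligand of Ccr9, had 5.79, 6.44 and 7.59 (6.50 ± 0.336) and was the member that fell with the immune scores, by 0.12 ± 0.026 with macrophages (adjusted p = 6.1e-05) and by 0.16 ± 0.025 with dendritic cells (adjusted p = 2.67e-08). It was also the 1 member counted above as falling with the T cell, B cell and lymphatic endothelium scores.

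Ligands and receptors were set side by side over the 150 tumors for 27 pairs taken from textbook knowledge. Pearson's r was positive with an adjusted p under 0.05 for 22 of the 27 pairs (permutation test, 100000 permutations, two-sided, adjusted over the 27), negative for 0 (also 0 at an unadjusted p under 0.05), and positive within all 5 blocks for 19. By Spearman's rho 21 pairs passed. No share over pairs of other genes stands beside these counts, and they do not separate shared array background from shared expression. Several of the receptors lay near background. Ccr8 was above it in 1 of the 159 tumors, Ccr3 in 6, Ccr4 in 15 and Ccr6 in 18. After quantile normalization 15 pairs passed, and of the 22 the r of Ccl1 with Ccr8 turned to -0.094 and that of Ccl20 with Ccr6 to -0.018. The 5 pairs that did not pass were Ccl17 with Ccr4 (r = 0.015), Ccl25 with Ccr9 (-0.081), Ccl28 with Ccr10 (-0.13), Cxcl10 with Cxcr3 (0.112) and Cxcl13 with Cxcr5 (0.0094).

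Xcl1 and Xcr1 were the closest pair, r = 0.632 and rho = 0.562 (permutation p = 1e-05 for each, the smallest 100000 permutations can give, adjusted p = 3.375e-05 for r and 3e-05 for rho). Tumor 12, with the cartilage genes, held the highest Xcl1 and, at 6.84, the highest Xcr1 of the 150. Without the 2 tumors farthest from the median of Xcr1 r was 0.532, without the 6 low-correlation arrays it was 0.592, and within blocks it lay between 0.47 and 0.84. Among 18953 genes Xcl1 had the twelfth highest r with Xcr1. No other ligand of the 27 pairs ranked as high with its receptor. The rank was 512 for Cx3cl1 with Cx3cr1, and 817, 1023 and 1332 for Ccl7, Ccl2 and Ccl12 with Ccr2. It was 2068 for Cxcl12 with Cxcr4. Ccl19 with Ccr7 and Cxcl12 with Ackr3 ranked higher than these. Among the pairs that passed by r the lowest placed was Ccl20 with Ccr6, at 6879. Ccl19 and Ccr7 had r = 0.504 and rho = 0.536 (permutation p and adjusted p as for Xcl1 and Xcr1), 0.489 without the 2 farthest tumors. Cxcl12 was closer to its scavenging receptor Ackr3, r = 0.496 and rho = 0.466 (permutation p = 1e-05 for each), than to its signaling receptor Cxcr4, r = 0.194 and rho = 0.297 (permutation p = 0.0173 and 0.00024, adjusted p = 0.0234 and 0.000432). The difference between those 2 correlations was not tested. Ccr2 had r = 0.444 with Ccl7, 0.394 with Ccl2 and 0.346 with Ccl12, and rho = 0.452, 0.404 and 0.351 in the same order, each with adjusted p of 9e-05 or less by permutation. Cx3cl1 and Cx3cr1 had r = 0.432 and rho = 0.389 (permutation p = 1e-05 for each), within blocks 0.082 to 0.62.

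**Figure D4:**
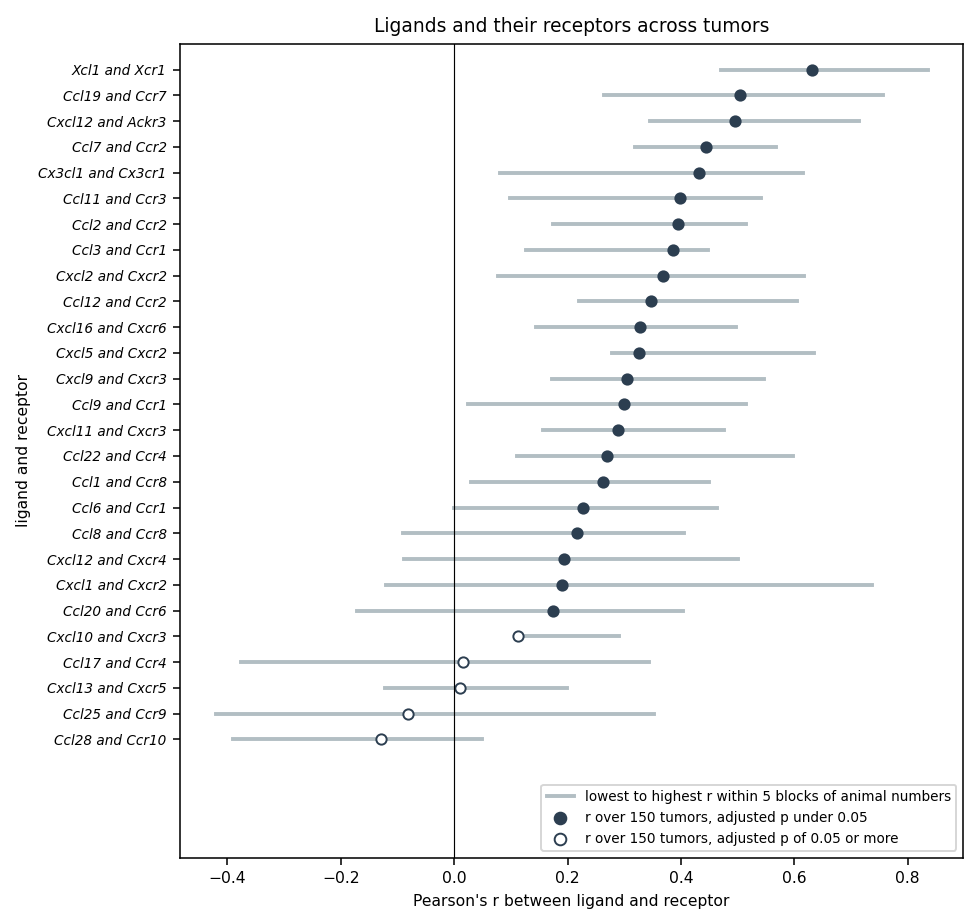
Pearson's r between 27 ligands and their receptors over 150 tumors (points, filled where the adjusted permutation p is under 0.05), with grey lines from the lowest to the highest r within 5 blocks of animal numbers. Xcl1 with Xcr1 lies highest at 0.632, and the 5 open points run from -0.13 to 0.112.

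Members also moved with each other. All 1378 pairs were tested by permutation over the 150 tumors with adjustment over the 1378, and r was positive past the threshold for 525 and negative for 61. No share over pairs of other genes stands beside these counts. They include pairs of the 17 members whose mean was not above background, such as Ccr1l1, and do not separate shared array background from shared expression. The median r was 0.128, and single pairs ran from -0.452 to 0.896. Ccl6 and Ccl9, which lie side by side on chromosome 11, were the closest (r = 0.896, rho = 0.889, permutation p = 1e-05 for each, adjusted p = 6.82e-05), 0.894 without the 2 tumors farthest from the median and 0.82 to 0.96 within blocks. Ccl2 and Ccl7, neighbors in another chromosome 11 group, had r = 0.877 and rho = 0.790 (permutation p = 1e-05 for each, r = 0.840 without the 2 farthest tumors). In the first of these groups Ccl5 departed from Ccl6, r = 0.165 and rho = 0.191 (permutation p = 0.0435 and 0.0188, adjusted p = 0.0914 and 0.044), while Ccl5 had r = 0.734 and rho = 0.770 (permutation p = 1e-05 for each, r = 0.761 without the 2 farthest tumors) with Cxcl9 of chromosome 5. Neighboring genes ranged from the closest pair of the family down to an r of -0.21 in the Cxcl1 group, -0.156 in the Ccr1 group and -0.065 in the Ccl2 group.

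Grouped by position, the 6 genes around Ccl2 on chromosome 11 had a median r of 0.338 over 15 pairs, and the 5 genes around Ccl5 0.186 over 10 pairs. On chromosome 5 the Cxcl9, Cxcl10 and Cxcl11 group had 0.416 over 3 pairs and the Cxcl1 group 0.224 over 10. Cxcl9 with Cxcl10 had r = 0.673 and rho = 0.671 (permutation p = 1e-05 for each), and Cxcl1 with Cxcl2, whose promoters hold the same NF-kappaB run, r = 0.348 and rho = 0.499 (permutation p = 0.00021 and 1e-05). The 7 receptors of the Ccr1 group on chromosome 9 had a median r of 0.276 over 21 pairs, and Ccl22, Cx3cl1 and Ccl17 of chromosome 8 0.358 over 3. Cxcr1 and Cxcr2, neutrophil receptors of the same locus, had r = 0.175 and rho = -0.029 (permutation p = 0.0372 and 0.730, adjusted p = 0.0803 and 0.818), and r was -0.047 without the 2 farthest tumors. These medians are descriptions, set beside 0.128 over all pairs.

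**Figure D5:**
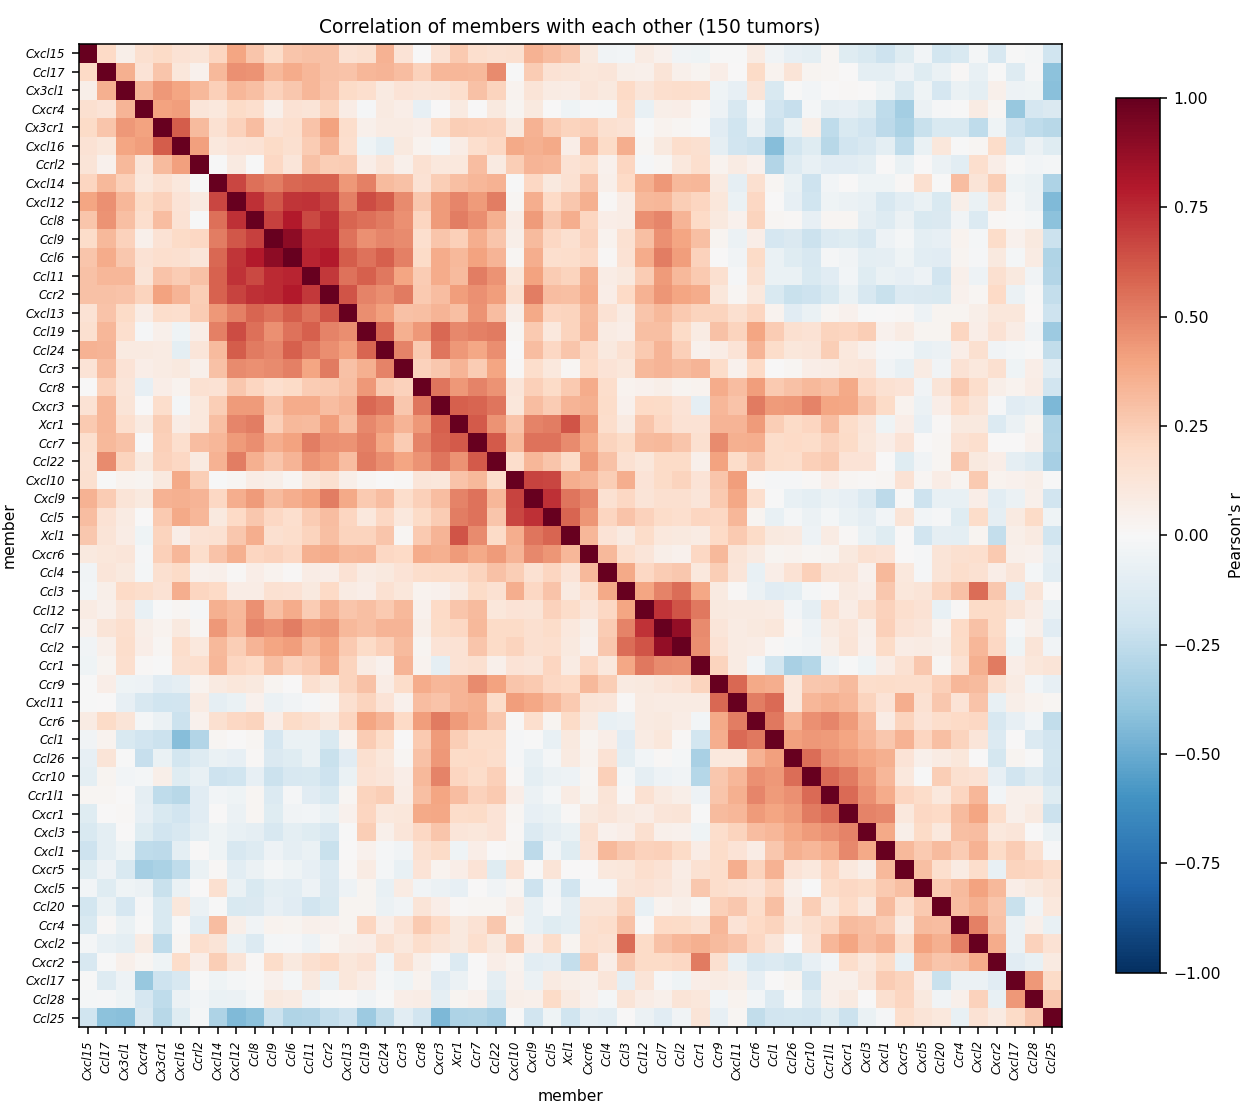
Pearson's r between all 53 members over 150 tumors, ordered so that members with like correlations stand together. Red is positive and blue negative. A block of macrophage and stromal members around Ccl6, Ccl8, Ccl9, Ccl11 and Ccr2 and a smaller one of Ccl5, Cxcl9 and Cxcl10 stand out, within a range from -0.452 to 0.896.

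Animal numbers, the only label that differs between the tumors, were cut into blocks of 100, and the 6 blocks (5 with 26 to 41 tumors and a last with 5) differed for 17 of the 53 members (limma F test, adjusted p under 0.05, n = 159), against 58.3% of all named genes. Ccl8 had the widest gap among the members named here, block means of 7.08 to 8.13 (adjusted p = 0.0149), while Ccr10 had the smallest adjusted p, 2.58e-07, with means of 6.10 to 6.23. Ccl6, Cxcl9, Cxcl13 and Ccl28 did not pass (adjusted p = 0.376, 0.525, 0.0835 and 0.329). A mixture of 2 normal distributions described 1 member as having 2 levels, Ccl24, against 1.46% of all genes. Its levels were 5.87 and 6.91, and 12.5% of tumors fell in the smaller part.

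The genes whose levels followed a member most closely are named for a few members. Those closest to Ccr4 over the 150 tumors were Krt90 (r = 0.853), Tchhl1, S100a7a, Gm11564 and Krt16 (0.837), which are mostly genes of cornified epithelium and hair, and Ccr4 was above background in 15 tumors. It rose with the neutrophil score by 0.14 ± 0.026 (adjusted p = 2.15e-05). In the limma model of all scores that slope was 0.063 (adjusted p = 0.259) and did not pass. Those closest to Cxcr2 were Clec4e (0.792), Trem1 (0.760), Mmp8, Retnlg and S100a9, genes of neutrophils and inflammatory monocytes, with 0.626 for Clec4e and 0.611 for Trem1 without the low-correlation arrays. For Ccl6 they were Lyve1 (0.903), Cd209d (0.897), Ccl9, Cfp (0.894) and Cd163 (0.893), of which Lyve1 and Cd163 are expressed by tissue-resident macrophages, and for Cxcl9 Gm4951 (0.758), Cd69, Iigp1, Ccl5 and Gm12250. These correlations are across tumors that share an array platform and are given as descriptions.

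The wider pathway was measured through 30 further genes, scavenging receptors, platelet ligands, chemerin and its receptor and the signaling proteins below the receptors. Of the 30, 29 were measured, 28 were above background (75.1% of all named genes were) and 25 passed the spread test (43.9%). With the macrophage score 22 rose and 1 fell, against 16.6% and 13.3% of all genes, and with the endothelium score 22 rose and 2 fell, against 18.1% and 16.2%. Dock2, the exchange factor that turns chemokine signals into leukocyte movement, had 6.34, 7.15 and 10.47 and rose with the macrophage score by 0.35 ± 0.015 (adjusted p = 1.31e-48). Rac2, the GTPase it acts on in leukocytes, rose by 0.28 ± 0.018 (adjusted p = 2.04e-31). Rarres2, which encodes chemerin, had 5.97, 7.45 and 9.78 and rose with the endothelium score by 0.64 ± 0.038 (adjusted p = 9.8e-34), and Pf4, a platelet CXC ligand, rose with it by 0.47 ± 0.034 (adjusted p = 3.88e-26). In the limma model of all scores these endothelium slopes were 0.016 for Rarres2 (adjusted p = 0.916) and 0.146 for Pf4 (adjusted p = 0.203). Neither passed there. The 1 that fell with macrophages was Mif, a cytokine that binds Cxcr2, Cxcr4 and Cd74, by 0.11 ± 0.023 (adjusted p = 2.32e-05), while Cd74 rose by 0.41 ± 0.037 (adjusted p = 9.75e-19).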

How the data were processed

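RNA of 159 tumors was measured on Affymetrix mouse ST arrays. The log2 values that were deposited (3.47 to 13.88) had been scaled by the authors to the median array in BRB ArrayTools 4.3.2, with no correction for batches. For background correction and probe summarization, the method is not given in the sources used. The number of arrays sets the precision.

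A further shift put the median difference between each array and the median array at 0. Of 20718 probe sets, 18965 had 1 symbol in the platform annotation, 688 had several and 1065 were not listed, and symbols were updated through gene identifiers (18940 matched). Where 1 of the 18954 genes had several probe sets, that of highest mean was taken. Members, lists and tests were chosen with earlier results of these data known. Tumors stood apart on a score past the first gap over 1 outward from the median. Slopes came from limma 3.58.1 in R 4.3.3, with Benjamini-Hochberg adjustment over all named genes. Pairs were tested with 100000 permutations, and blocks with at least 6 tumors were also used alone. A mixture called 2 levels where the fit with 2 normals had a BIC lower by over 20, the separation (Ashman's D) exceeded 2.5 and the smaller part held at least 10% of tumors above background. Arrays were called low-correlation where the median r with the others fell below the first quartile by over 3 interquartile ranges. The slope, spread and mixture tests were tested on simulated data. Other steps ran in Python 3.11.15 with pandas 2.3.3, scipy 1.17.1, numpy 2.4.6 and matplotlib 3.10.9.

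Every member could be named, with full values for the members of largest and smallest SD, of the pairs and of the gene clusters compared, and the 5 genes of highest r for 6 members. Sequences and positions are from RefSeq (GRCm38.p6), and 14 members without a window were not searched. Alternatives were quantile normalization, no further shift of the deposited values, the probe set of highest variance, leaving out the 6 low-correlation arrays, removing block means, all 159 tumors, ranks, the background receptor score as a covariate or regressed out, all scores in 1 model, an adjusted p, a robust variance, the 75th percentile of receptor genes (5.11), genes above background alone, Ashman's D over 3 and leaving out the last block. Leaving out the tumors apart on the score itself, and the 9 tumors for the spread and mixture tests, were chosen after seeing the data.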

Additional observations from a re-analysis of the deposited data

How the results depend on the processing

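Of the counts of members recomputed under alternatives, 166 stayed within 1.5 times of the value given and 26 did not. Those that stayed included the counts of all members above background, past the spread test, between blocks and of ligand and receptor pairs. The count of receptors above background depended on the level chosen. At 5.11, the 75th percentile, only Cxcr5 (mean 4.89) and Ccr8 (4.88) of the receptors had a mean below it. With all 16 scores in 1 model, the members related to a score were 13 for T cells, 2 for B cells and plasma cells, 21 for macrophages, 5 for neutrophils, 10 for dendritic cells, 1 for type I interferon, 8 for interferon gamma, 8 for the inflammatory score, 6 for fibroblasts, 2 for endothelium, 0 for lymphatic endothelium (limma, 5 at an unadjusted p under 0.05), 4 for adipocytes, 4 for luminal epithelium, 1 for milk secretion, 7 for basal epithelium and 9 for proliferation; the scores correlate with each other, so that model tests what each adds to the rest. Quantile normalization gave 9 for B cells, 8 for neutrophils, 10 for the luminal score and 16 for proliferation. All 159 tumors gave 33 for interferon gamma and 35 for the inflammatory score. The luminal count was 12 with the values as deposited, 9 without the low-correlation arrays and 10 with the background receptor score as a covariate, and 2 members had 2 levels without those arrays. No share of all genes stands beside these counts under alternatives. The cause of these shifts was not tested. Of the single slopes and pairs given or strongest for a member, 19 values changed sign. With all scores in 1 model these were Cxcl14 on endothelium (-0.038, adjusted p = 0.841), Ccl25 (0.0011) and Mif (0.033) on macrophages, Cxcr3 on interferon gamma (-0.030), Cxcl9 on type I interferon (-0.0074) and Cxcl13 (-0.050) and Cxcr5 (-0.00075) on the B cell score. Without tumor 27 they were Cxcl17 (0.0039) and Cxcr4 (-0.0010) on proliferation, without the low-correlation arrays Cxcr4 on proliferation (-0.023) and Ccrl2 on the luminal score (-0.0054), over all 159 tumors Cxcl3 on the B cell score (-0.00061), and by quantile normalization Ccl1 with Ccr8 (r = -0.094), Ccl17 with Ccr4 (-0.040) and Ccl20 with Ccr6 (-0.018). Ccl25 with Ccr9 was 0.029 as deposited, and Cxcl13 with Cxcr5 was -0.015 as deposited, -0.041 without the low-correlation arrays and -0.0027 with block means removed. In the other alternatives run for these slopes and pairs the sign held, and 62 slopes, 11 pairs and 23 spread tests were no longer past the threshold. Of all 406 slopes of members past the threshold, 86 changed sign in the model of all scores and at most 6 in any other alternative. Those past the threshold with the opposite sign in that model were 4, Ccl5 (-0.16), Ccl22 (-0.097) and Cxcr6 (-0.11) on dendritic cells and Cxcl13 on endothelium (-0.55, adjusted p = 0.0464). No paired analysis was possible because the tumors form a single group. Members near background have little signal over it, which limits what can be read from their small slopes.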
